A study of Danio rerio with 20 samples.

Results

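Ion channels and neurotransmitter receptors set how brain cells hold and change their membrane potential. Voltage-gated and leak channels shape the firing of a neuron, receptor channels for glutamate, GABA, glycine and acetylcholine turn a released transmitter into a current, and receptors coupled to G proteins act more slowly through second messengers. Auxiliary subunits do not form the pore but decide where many of these channels sit and how they open and close. The genes described here are the 34 channel and receptor genes among the 2885 genes that a deposited table of the ageing zebrafish brain lists. They were chosen by their symbols, which begin with the prefixes of the potassium, calcium, sodium, chloride, HCN, TRP, anoctamin, ASIC, P2X and intracellular calcium release channels and of the glutamate, GABA, glycine, acetylcholine, serotonin, dopamine and adrenergic receptors.

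The study sequenced poly(A) RNA of whole brains from male AB zebrafish, both WT fish and their tert−/− siblings, which carry a homozygous point mutation of the telomerase gene tert. The labels hold 20 libraries in 7 groups, WT at 2, 9, 22 and over 30 months and tert−/− at 2, 9 and 22 months. The table belongs to the comparison of WT at over 30 months (3 labelled libraries) with WT at 2 months (2 labelled libraries). The study's text instead states 3 per group. It gives the ages of its groups as ranges in its results, and as 2, 9, 22 and over 30 months in its account of the comparisons. The table lists only genes whose adjusted p in the authors' own comparison was under 0.05. That comparison's fold changes and p-values were not used, so no statement is made here on which genes were higher or lower in old fish. The measured level that remains is the authors' mean normalized count of each gene, a single value pooled over the libraries of their fit. It mixes young and old brains and has no error and no value per fish, and the table gives no depth of the libraries, for which the study's text states only a minimum and an average over samples, so no test was made on it and every comparison below is a description. A long transcript yields more reads than a short one at the same abundance, and as transcript lengths were not used, the order of these values is an order of read counts and not of expression.

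Of the 34 genes, 28 were classed by symbol as pore-forming channel subunits or receptors and 5 as auxiliary subunits. The last 1, trpc4apb, encodes a protein associated with the TRPC4 channel that is itself no channel. The label of the group therefore does not hold for trpc4apb. It holds only by family name for clcn4, clcn5a and clcn5b, whose mammalian counterparts exchange chloride for protons. For the anoctamins, which are chloride channels or lipid scramblases, it was not tested. The 34 are 7.56% of the 450 protein-coding genes that RefSeq annotates under the same prefixes, 15 of which are, like trpc4apb, no channels or receptors. Of all 27039 protein-coding RefSeq symbols, 2658 or 9.83% are listed. Both shares are of annotated and not of tested genes. Of the 2885 listed genes, 2658 carry a protein-coding RefSeq symbol, and the rest do not enter the 9.83%. All 34 channel and receptor genes matched a RefSeq symbol or synonym. The 9.83% may therefore be too low as a yardstick for the shares of their classes, and by how much was not tested. Over the 34 genes the mean normalized count ran from 8.71 to 16169 with a median of 264, beside a median of 188 over all 2885 listed genes, and 19 of the 34 lay above that median. In 9 genes (26.5%) it was at least 1000, against 15.2% of all listed genes. In 28 genes (82.4%) it was at least 50, against 75.8% of all listed genes, and in 6 genes it was under 50. Most of the reads came from few genes. grin1a and gria2b, both subunits of glutamate-gated channels, made up 60.2% of the summed mean normalized count of the 34 genes.

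**Figure D1:**
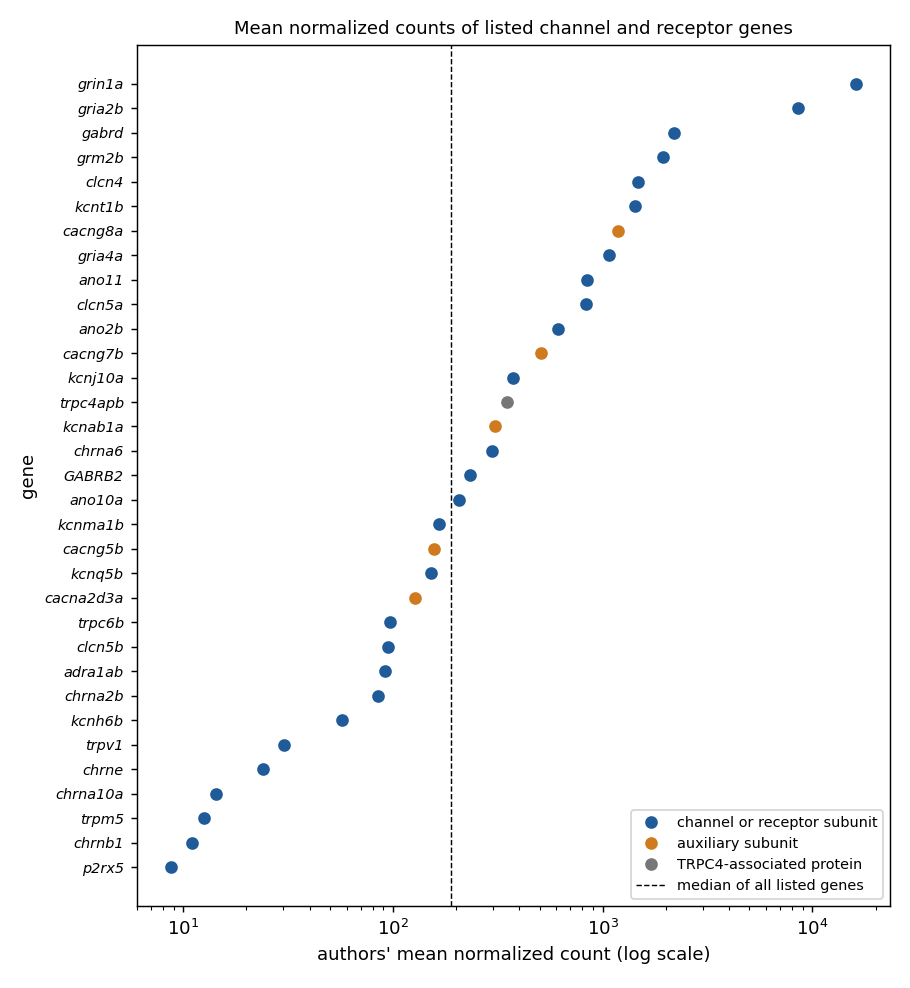
Mean normalized count of 33 of the 34 genes in the authors' deposited table, on a log axis, 1 point a gene, with the colour giving the kind of protein and the dashed line the median of all listed genes (188). The points run from p2rx5 at 8.71 to grin1a at 16169, and 18 of the 33 lie above the line; a point is a mean over libraries and has no error bar.

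Among the glutamate receptors, the genes listed were grin1a, gria2b, gria4a and grm2b. grin1a (ENSDARG00000027828, chromosome 21 of GRCz11 from 11468642 to 11502971) encodes a subunit of NMDA receptors, and its mean normalized count was 16169. Its mammalian counterpart is the subunit that every NMDA receptor needs, while zebrafish have another annotated copy of the gene, grin1b. gria2b (ENSDARG00000052765, chromosome 14 from 35748206 to 35813662) and gria4a (ENSDARG00000037496, chromosome 15 from 44499187 to 44810137) encode subunits of AMPA receptors, which carry the fast excitatory current. Their mean normalized counts were 8508 and 1067. grm2b (ENSDARG00000007195, chromosome 11 from 36158134 to 36216651), which encodes a metabotropic receptor that in mammals dampens transmitter release, stood at 1937. All 4 lay above the 85th percentile of the listed genes. The table thus holds 2 of 8 annotated AMPA receptor genes (25%), 1 of 13 for NMDA receptors (7.69%) and 1 of 13 for metabotropic receptors (7.69%). It holds none of 10 for kainate and delta receptors, and 9.83% of all protein-coding symbols.

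Close to the AMPA receptors stand 3 of the 5 auxiliary genes. cacng8a, cacng7b and cacng5b are named as gamma subunits of calcium channels, and their mammalian counterparts are known mainly as partners of AMPA receptors that set their traffic and gating. cacng8a (ENSDARG00000020450) had a mean normalized count of 1180, cacng7b (ENSDARG00000070624) of 507 and cacng5b (ENSDARG00000039240) of 156. cacna2d3a (ENSDARG00000106018), which encodes an alpha2delta subunit that brings calcium channels to the membrane, was at 127. These are 4 of 30 annotated auxiliary calcium channel genes (13.3%), beside 9.83% of all protein-coding symbols. None of the 18 annotated genes for the pore of voltage-gated calcium channels is in the table. The last auxiliary gene, kcnab1a (ENSDARG00000008140), encodes a beta subunit of voltage-gated potassium channels and was at 307. Of 14 annotated auxiliary potassium channel genes, 1 is listed (7.14%, against 9.83% of all protein-coding symbols).

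Of 28 annotated genes for GABA-A and glycine receptors, 3 are listed (10.7%, against 9.83% of all protein-coding symbols), and 2 of them are described. gabrd (ENSDARG00000059763, chromosome 8 from 53185079 to 53198154) encodes the delta subunit of GABA-A receptors, which in mammals marks receptors outside the synapse that respond to ambient GABA, and had a mean normalized count of 2188. GABRB2 (ENSDARG00000100032, chromosome 21 from 42226113 to 42374228) encodes a beta subunit and stood at 234. In the RefSeq table the symbol GABRB2 is a synonym of gabrb2a. None of the 3 annotated GABA-B receptor genes is listed.

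Acetylcholine receptors of the nicotinic type had 5 listed genes of 23 annotated (21.7%, against 9.83% of all protein-coding symbols). Their mean normalized counts ran from 11.0 to 295. chrna6 (ENSDARG00000055559), whose mammalian counterpart is found in dopamine neurons, was at 295, above the median of all listed genes, and chrna2b (ENSDARG00000057025) at 84.4. chrne (ENSDARG00000034307) and chrnb1 (ENSDARG00000069660) encode subunits of the receptor of the neuromuscular junction and were at 24.0 and 11.0. chrna10a (ENSDARG00000011113), whose mammalian counterpart serves the hair cells of the inner ear, was at 14.3. Of the 5 skeletal muscle markers that were looked up beside them, none is in the table, which says nothing on their level. The last 3 receptor genes lie below the 14th percentile of the listed genes. A further receptor channel with few reads was p2rx5 (ENSDARG00000004455), gated by extracellular ATP, at 8.71, the lowest value of the 34. Of 15 annotated ASIC and P2X genes, 1 is listed (6.67%, against 9.83% of all protein-coding symbols).

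Of the receptors coupled to G proteins, the table lists grm2b and adra1ab (ENSDARG00000027638), an alpha1 adrenergic receptor gene with a mean normalized count of 91.3, 1 of 15 annotated adrenergic genes. None of 22 annotated serotonin receptor genes, 12 of dopamine receptors and 10 of muscarinic receptors is listed. Of all protein-coding symbols 9.83% are listed, and whether these classes differ from that share was not tested. The same share stands beside the other classes with none. A gene that is not listed was not called by the authors, or was not tested or not kept by them, and the table does not separate these cases.

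Potassium channel pores had 5 listed genes. kcnt1b (ENSDARG00000104868), a channel that opens with intracellular sodium, had a mean normalized count of 1431 and kcnj10a (ENSDARG00000090815), an inward rectifier whose mammalian counterpart clears potassium in glia, one of 372. kcnma1b (ENSDARG00000110727), the large-conductance channel opened by calcium and voltage, was at 166. kcnq5b (ENSDARG00000069953), of the family that carries the M current, was at 152 and kcnh6b (ENSDARG00000010296), of the ERG family, at 57.1. The 2 voltage-gated genes are 2 of 54 annotated (3.70%), the channels opened by calcium or sodium 2 of 11 (18.2%), and the inward rectifier 1 of 30 (3.33%). None of 21 annotated leak channel genes of the kcnk family is listed. Of all protein-coding symbols 9.83% are listed. The counts of potassium channels go by symbol and leave out a listed gene outside the rule that a second set of gene names calls KCNJ10. Voltage-gated sodium channels, with 8 annotated pore genes and 6 of beta subunits, have no listed gene, and neither do the 6 annotated HCN genes or the 9 of intracellular calcium release channels.

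With 6 of 28 annotated genes (21.4%), chloride channels and anoctamins had the most listed genes of any class by number. By share, AMPA receptors (25%) and nicotinic receptors (21.7%) stood higher, beside 9.83% of all protein-coding symbols. clcn4 (ENSDARG00000035808), clcn5a (ENSDARG00000019693) and clcn5b (ENSDARG00000022466) encode proteins of the CLC family whose mammalian counterparts exchange chloride for protons in endosomes, and their mean normalized counts were 1479, 828 and 94.2. Anoctamins are calcium-activated chloride channels or lipid scramblases. ano11 (ENSDARG00000077327) was at 840, ano2b (ENSDARG00000101363), whose mammalian counterpart is a chloride channel of olfactory neurons, at 609, and ano10a (ENSDARG00000057736) at 206. The 3 TRP channels, of 28 annotated, all lay below the median of all listed genes (188). trpc6b (ENSDARG00000067730), a cation channel opened by diacylglycerol in mammals, was at 96.6, trpv1 (ENSDARG00000059883), the capsaicin and heat receptor of sensory neurons in mammals, at 30.2 and trpm5 (ENSDARG00000059792), a channel of taste cells, at 12.5. trpc4apb (ENSDARG00000020647) was at 350.

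**Figure D2:**
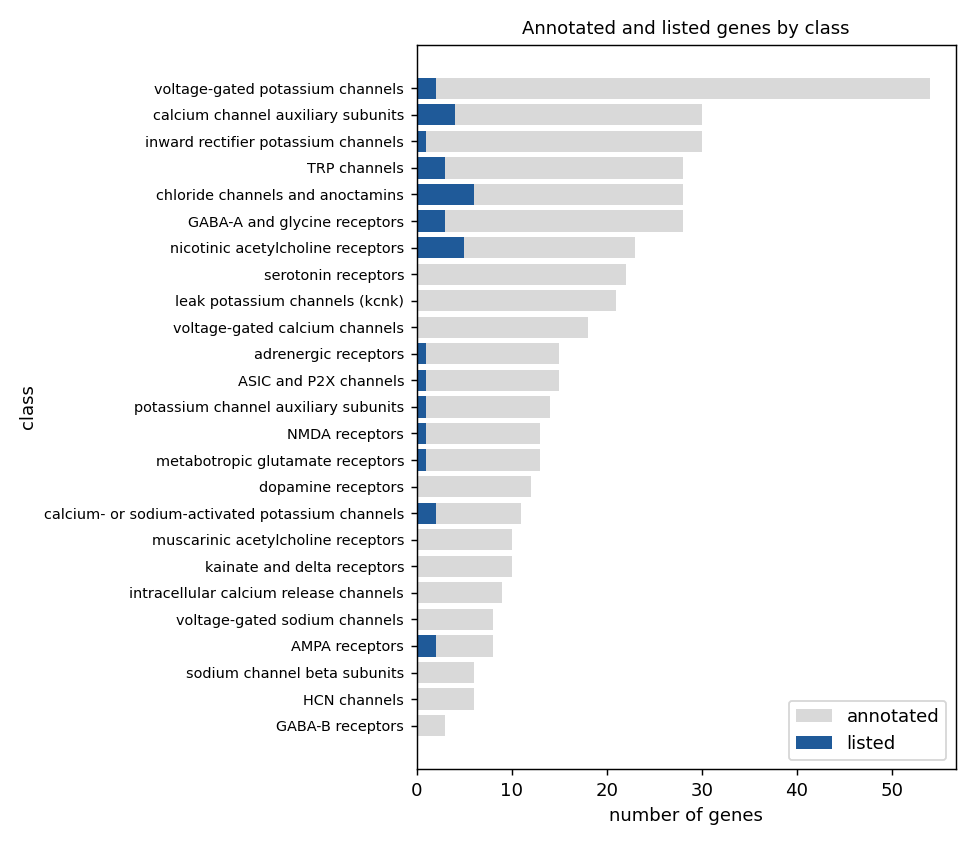
Number of protein-coding RefSeq genes whose symbol fits each class (grey) and number of these listed in the table (blue), 1 bar a class, axis from 0. The chloride channels and anoctamins (6 of 28) and the nicotinic receptors (5 of 23) had the most listed genes, and 11 classes had none. Of all protein-coding symbols 9.83% are listed.

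Zebrafish kept many genes in a pair of copies from an ancient genome duplication, named a and b. Of the 23 genes with such a suffix, 21 have the other copy annotated, and in 19 of these the other copy is not listed under its symbol. The 2 listed are 9.52% of the 21, beside a share of 9.83% among all protein-coding symbols. They are a single pair, clcn5a and clcn5b, counted from both sides, so the share rests on that pair. Its mean normalized counts were 828 and 94.2. Among those whose partner's symbol is not listed were grin1a, gria2b, gria4a, grm2b and kcnma1b. The symbol kcnj10b is not listed either, but a listed gene outside the rule carries the name KCNJ10 in a second set of gene names. Whether that gene is the other copy of kcnj10a was not tested. Reads shared between such copies were not tested.

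Beside the listed genes as a whole, the 34 genes were long. Their span on the genome, from first to last base with introns, had a median of 35.5 kb and a range from 11.0 to 311 kb, beside a median of 17.2 kb for all listed genes, and 29 of the 34 exceeded that median. At least 100 kb were spanned by 7 of them (20.6%), against 6.76% of all listed genes. The longest was gria4a at 311 kb, followed by kcnq5b at 215 kb, kcnab1a at 173 kb and GABRB2 at 148 kb. The gene with the most reads, grin1a, spanned 34.3 kb, and the shortest was chrne at 11.0 kb. The 55 listed solute carriers, the other large group of membrane transport proteins, had a median span of 23.0 kb and a median mean normalized count of 285. Span and length of the spliced transcript differ, and the length of the transcripts was not used. Whether the 34 differ in span from annotated channel and receptor genes that are not listed was not tested.

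**Figure D3:**
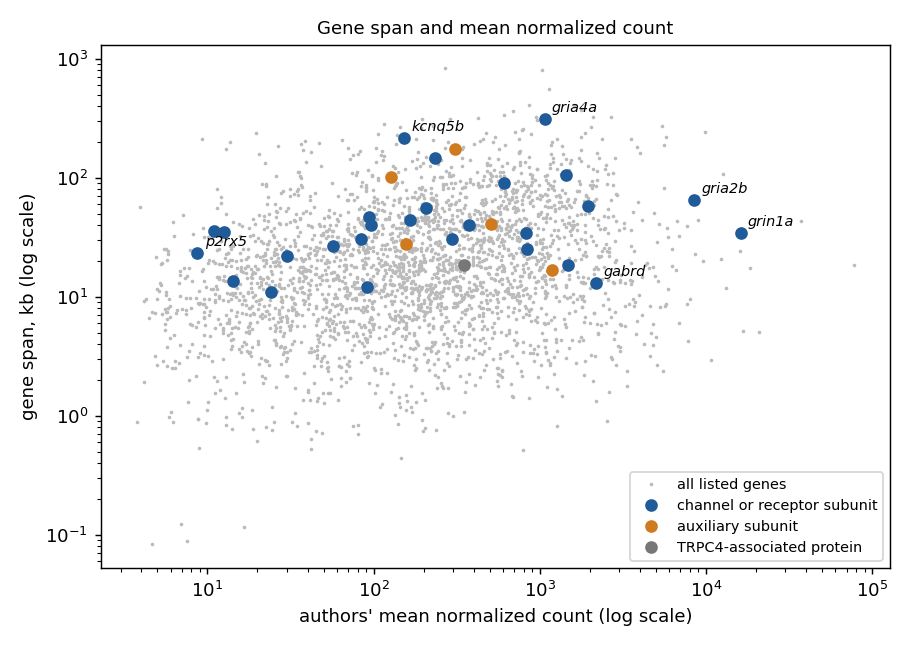
Gene span in kb against the authors' mean normalized count, both on log axes, 1 point a gene, for all 2885 listed genes (grey) and 33 of the 34 channel and receptor genes (coloured by kind). The coloured points lie mostly in the upper part of the grey cloud, with a median span over the 34 genes of 35.5 against 17.2 kb, and reach from p2rx5 to grin1a on the count axis.

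The 34 genes lie on 18 chromosomes, and 4 of them lie within 2 Mb of a chromosome end (11.8%, against 11.1% of all listed genes). These were kcnma1b at 0.24 Mb, cacna2d3a at 0.64 Mb, gabrd at 1.11 Mb and clcn4 at 1.32 Mb. 6 genes have another of the 34 within 500 kb. p2rx5 and trpv1 are separated by 15.4 kb on chromosome 5, with no listed gene between them. chrnb1 and clcn5b are 274 kb apart on chromosome 7, and gabrd and cacna2d3a 366 kb apart on chromosome 8, with 3 listed genes in each gap. None of the 34 overlaps another listed gene, and of all 2885 listed genes only 95 (3.29%) do. The gene trpm5 lies 0.025 kb from cdkn1ca, a gene of a cell cycle inhibitor.

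Genes that work beside these channels were listed at shares from 5.26% to 21.4% by list, on both sides of the 9.83% of all protein-coding symbols. Of 17 annotated genes of transmitter synthesis the table holds 1 (5.88%), the glutaminase gene glsb, with a mean normalized count of 1724. Of 25 vesicular and plasma membrane transmitter transporters it holds 3 (12%), the GABA transporter gene slc6a11b at 3550, the glial glutamate transporter gene slc1a3a at 293 and the serotonin transporter gene slc6a4a at 78.8. Of 38 annotated receptor scaffolds and partners it holds 2 (5.26%), cnih2, whose mammalian counterpart binds AMPA receptors, at 1494 and dlgap1a, a scaffold of the postsynaptic density, at 278. Of 14 genes of the chloride gradient and the sodium pump it holds 3 (21.4%), the chloride exporter gene slc12a5a at 813 and the sodium pump genes atp1a1b at 12222 and atp1b1a at 1404. Of the marker genes that were looked up, all 5 of oligodendrocytes are listed, mbpa at 78061, mpz at 16044, plp1b at 13258, mbpb at 2102 and plp1a at 396. Of 4 markers of radial glia 2 are listed, fabp7a at 5499 and gfap at 1031. Of 8 general markers of neurons 1 is listed, snap25a at 37420, and none of 4 of GABA neurons and none of 4 of glutamate neurons. None of 5 markers of skeletal muscle, 2 of heart muscle and 4 of the retina is listed.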

How the data were processed

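RNA was taken from whole zebrafish brains. Per the submitters' processing notes, STAR, HTSeq, cutadapt 3.0 and MultiQC 1.9 were used, on GRCz11 and in no stated order, while the study's methods give featureCounts as the counter. The authors compared ages with DESeq2. The deposited signal is the authors' mean normalized count per gene, made from counts divided by size factors and averaged over libraries; which libraries entered is not stated. The table comes in 3 sheets. 1 was used, and 5 columns that hold the authors' own comparison (log2 fold change, its standard error, statistic, p and adjusted p) and the sheets that split it by direction were not.

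The 2887 entries hold 2885 gene identifiers, as 2 occur in 2 entries. Members were taken by symbol, case ignored. All 34 matched a RefSeq symbol or synonym (GRCz12tu assembly, used for names only). The members and lists were chosen with earlier results of these data known, and trpc4apb was set apart after the table was seen. In each class the members are named, with their counts, except 1 gene that is not reported here and enters only the totals. No test was made, as no value per library was used. Gene sequences were not used here. Python 3.11.15, pandas 2.3.3, numpy 2.4.6 and matplotlib 3.10.9 were used.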

Additional observations from a re-analysis of the deposited data

How the results depend on the processing

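No paired analysis was possible because the values are pooled over libraries, and for the same reason no library could be left out. The number of genes, 34, was 33 without trpc4apb and 28 with pore-forming subunits and receptors only, and stayed at 34 by distinct symbol. By the symbols of the table of gene names it was also 34, where LOC100329607, named KCNJ10 there and outside the rule, takes the place of trpc4apb, which has no symbol there. The median mean normalized count of 264 was 295 among genes with at least 10, 361 among those with at least 50, 220 with pore-forming subunits and receptors only, and 220 without the 2 genes of at least 5000, a setting chosen after seeing the data. Over all listed genes the same filters gave 203 and 311. The median span of 35.5 kb was 40.8 kb at a mean count of at least 50, against 19.4 kb over all listed genes. Protein length, sequence motifs, counts per coding length and spans from a second annotation were planned and not run, as no protein table or annotation of this build was used.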
